A study of Homo sapiens with 11 samples.

Results

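IL7R, ACE, CALHM4 and CALHM5 are 4 genes for proteins of the cell membrane that stood high in retinal pigment epithelium cells made to express Sox2 and low when Sox2 was expressed together with Oct4 and Klf4. They were chosen by their measured values, namely a large rise in the Sox2 libraries over the GFP libraries that was lost in the libraries with all 3 factors. They are 4 of the 60605 features in the deposited table and 4 of the 18828 genes that passed a filter of at least 10 normalised counts in at least 2 libraries. All 4 passed it in the Sox2 libraries, and CALHM4 and CALHM5 passed through the Sox2 libraries alone. Polyadenylated RNA was sequenced from ARPE-19, an established human retinal pigment epithelium line, taken 4 days into expression of an open reading frame carried by a stable line. The reading frame was GFP, the fluorescent control (3 libraries), Oct4 (2), Sox2 (2), Klf4 (2), or Oct4, Sox2 and Klf4 together, called OSK (2). The library names of the Oct4, Sox2, Klf4 and OSK lines also carry the tag mC, which the GFP names lack. The names do not say what mC stands for, and every comparison with GFP also differs in this tag. The series' design text ties the data to the induction of candidate oxidative effectors by these factors. The sources used here do not give the promoter or species of the reading frames, whether a line was 1 clone, or whether replicates came from separate cultures. The p-values below therefore measure only the spread between these libraries, which may be technical.

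IL7R is the alpha chain of the interleukin-7 receptor. It pairs with the common gamma chain IL2RG to signal through JAK1, JAK3 and STAT5, and it also forms the TSLP receptor with CRLF2. It is best known from lymphocytes, where interleukin-7 supports survival. ACE is the membrane peptidase that makes angiotensin II from angiotensin I and degrades bradykinin. It is abundant on endothelial cells. CALHM4 and CALHM5 belong to the calcium homeostasis modulator family of large-pore channels. CALHM4 is known from placenta, and CALHM5 is less studied. Sox2 is a transcription factor of pluripotent and neural progenitor cells that binds DNA through an HMG box, a domain that recognises short AT-rich sites such as ACAAT and ACAAAG.

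Each library held between 15053300 and 19791775 reads, recovered from the deposited normalised counts. GFP replicate 1 stood apart, with 42956 features detected, and OSK replicate 1 had 32493, against 25853 to 26971 in the other 9 libraries. Values of the 4 genes that rest on GFP are therefore also given without GFP replicate 1, as are the partner lists' counts and medians against GFP. The human SOX2 row, which checks the labels as far as the reading frame matches the human gene, was at 29106 and 29141 normalised counts in the Sox2 libraries and 17764 and 17582 in OSK. It lay between 43.7 and 197 in the GFP, Oct4 and Klf4 libraries. The OSK mean of SOX2 was 60.7% of the Sox2 mean. Of 8 tested markers of pigment epithelium, 6 were lower in Sox2 than in GFP with or without GFP replicate 1 (limma, adjusted p under 0.05), where 19.9% of all tested genes were lower and 21.7% higher. PMEL, a melanosome protein, fell most, by a log2 change of -5.23 (limma adjusted p = 1.1e-11). Its means were 5147 in GFP, 612 in Oct4, 140 in Sox2, 1270 in Klf4 and 809 in OSK, so its low level was not particular to Sox2. RPE65, the visual cycle isomerase that defines mature pigment epithelium, was between 0 and 4.63 in all 11 libraries.

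The sequence just upstream of each gene's start is shown because the 4 genes were chosen for their level beside a factor that binds DNA. RefSeq (GRCh38.p14) matched all 4 genes, with 6 transcription starts. IL7R has 1 listed start, ACE 2, CALHM4 2 and CALHM5 1, and the counts per gene do not tell which start was used. All 4 genes lie on the plus strand. In the 250 bases before each start, written 5′ to 3′ on the plus strand, capitals mark ACAAT or ACAAAG read on either strand (ATTGT and CTTTGT where the match is on the minus strand). GENCODE 29 places the IL7R start further upstream than RefSeq does. The windows are chr5:35856641-35856890 for IL7R, chr17:63476811-63477060 for the first start of ACE, chr6:116528793-116529042 for the first start of CALHM4 and chr6:116511389-116511638 for CALHM5.
IL7R: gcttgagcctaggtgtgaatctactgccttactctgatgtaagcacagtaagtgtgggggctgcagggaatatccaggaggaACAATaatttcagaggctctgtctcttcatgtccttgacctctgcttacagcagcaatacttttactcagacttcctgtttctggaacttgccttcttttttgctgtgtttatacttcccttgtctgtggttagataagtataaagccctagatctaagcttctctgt
ACE, first start: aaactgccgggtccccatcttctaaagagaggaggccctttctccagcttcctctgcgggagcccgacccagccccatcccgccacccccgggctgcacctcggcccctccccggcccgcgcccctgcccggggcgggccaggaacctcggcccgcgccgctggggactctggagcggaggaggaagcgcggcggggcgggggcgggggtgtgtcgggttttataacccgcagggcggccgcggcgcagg
CALHM4, first start: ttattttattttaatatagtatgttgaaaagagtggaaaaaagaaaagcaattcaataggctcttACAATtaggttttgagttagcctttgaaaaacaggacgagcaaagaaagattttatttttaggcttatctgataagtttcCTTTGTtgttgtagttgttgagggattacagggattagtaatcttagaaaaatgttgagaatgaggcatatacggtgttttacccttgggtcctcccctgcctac
CALHM5: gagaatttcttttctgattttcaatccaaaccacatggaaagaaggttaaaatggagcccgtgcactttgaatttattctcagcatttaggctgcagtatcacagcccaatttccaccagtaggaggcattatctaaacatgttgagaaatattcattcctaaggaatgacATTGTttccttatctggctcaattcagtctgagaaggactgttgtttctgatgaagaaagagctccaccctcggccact

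IL7R held 1 ACAAT, 168 bases before its start. CALHM4 held 1 ACAAT at 185 bases and 1 ACAAAG on the minus strand at 105 bases before its first start. CALHM5 held 1 ACAAT on the minus strand, 79 bases before its start. Neither ACE window held either motif, nor did the window of the second CALHM4 start (chr6:116553501-116553750). Among 35114 promoter windows of the same length, 24.6% held ACAAT, 13.7% held ACAAAG and 33.7% held at least 1 of them. ATGCAAAT, the octamer read by Oct4-type factors, was in none of the 6 windows and in 1.63% of all promoters. CACCC, the core read by Klf-type factors, was in both ACE windows, in the second CALHM4 window and in the CALHM5 window, and in 54.7% of all promoters. The windows also differed in base composition. The first ACE window was 75.2% G and C and the second (chr17:63484596-63484845) 64.8%, against 43.6% for IL7R, 40.4% for CALHM5, 33.6% and 39.6% for CALHM4, and a median of 58% over all promoters. The shares over all promoters are not matched to this composition, so no excess of matches is read from them. A match is only a match of letters, and a missing match says only that these letters are not in this window.

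IL7R had the highest level of the 4 genes. In the GENCODE 29 annotation (GRCh38) it spans chromosome 5, 35852695 to 35879603, with 6060 exon bases and no exon shared with another gene. Its normalised counts were 3192 and 2754 in the Sox2 libraries (mean 2973 ± 309.9, SD, n = 2), or 2845 and 3216 reads. The Oct4 libraries followed at 79.0 and 75.5, then OSK at 17.3 and 14.3, and Klf4 at 4.63 and 3.43. The GFP libraries gave 15.9, 0 and 0.97. Sox2 and Oct4 each stood clear of every other group, whereas GFP replicate 1 lay within the OSK range and above Klf4. Without GFP replicate 1, the GFP values lay below those of every other group.

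The pooled reads of IL7R per normalised library put Sox2 524-fold above GFP, with a 95% interval for counting error of 327 to 900. Without GFP replicate 1 only 1 GFP read was left, and the ratio was 5937 (1065 to 234556). Sox2 stood 186-fold above OSK (129 to 278), 38.1-fold above Oct4 (32.1 to 45.6) and 732-fold above Klf4 (355 to 1820.3). OSK held 0.532% of the Sox2 level. These counting intervals do not include the spread between libraries, and PCR reads without molecular identifiers are not independent molecules. On the log2(value + 1) scale, IL7R was 9.85 higher in Sox2 than in GFP, rank 1 of 18828 genes. The added 1 shrinks changes of low genes, yet this value was above the 9.03 that edgeR gave on the recovered reads. IL7R was 11.04 higher without GFP replicate 1, again rank 1. The OSK minus Sox2 difference was -7.47, rank 2 from the bottom. No test is given for these differences because they chose the gene.

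ACE was the most variable of the 4 between the Sox2 libraries. It spans chromosome 17, 63477061 to 63498380, with 8365 exon bases. Of these, 1997 are shared with AC113554.1, a gene on the same strand, and the authors' handling of shared reads is not given in the sources used here. ACE was at 729 and 1509.6 normalised counts in Sox2 (mean 1119 ± 551.7, SD, n = 2). The other 8 libraries apart from GFP replicate 1 lay between 1.01 and 12.6, with 8.13 and 12.6 in Oct4, 8.10 and 11.4 in Klf4, and 6.50 and 11 in OSK. GFP replicate 1 was at 36.7, against 1.01 and 4.86 in the other GFP libraries. Oct4, Klf4 and OSK overlapped one another, and both Sox2 libraries stood above all others.

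Sox2 was 82.4-fold above GFP for ACE (61.0 to 114), and 394-fold above it without GFP replicate 1 (181 to 1075). This fold rests largely on GFP replicate 1, which held 37 of the 43 GFP reads of ACE. Sox2 was 134-fold above OSK (82.4 to 235), 113-fold above Oct4 (71.3 to 191) and 120-fold above Klf4 (74.7 to 206). OSK held 0.782% of the Sox2 level. The log2 difference was 7.10 between Sox2 and GFP, rank 4, and -6.79 between OSK and Sox2, rank 4 from the bottom.

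CALHM4 was closest to being absent outside the Sox2 libraries. It spans chromosome 6, 116529013 to 116558868, with 1932 exon bases and no exon shared with another gene. It was at 435 and 506 normalised counts in Sox2 (mean 471 ± 50.01, SD, n = 2), from 388 and 591 reads. All 3 GFP libraries and Oct4 replicate 2 were at 0. Oct4 replicate 1, both Klf4 libraries and both OSK libraries held 1 read each, or 1.08 to 1.16 normalised counts. The groups other than Sox2 could not be ordered at this depth.

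With 0 GFP reads, the fold is a lower bound set at 3 reads over the GFP group. CALHM4 was at least 479-fold higher in Sox2 than in GFP, and at least 320-fold higher without GFP replicate 1. Sox2 over OSK was 435-fold from 2 OSK reads, with a counting interval of 120 to 3600.4. Sox2 over Oct4 was 825-fold from 1 read (148 to 32612), and Sox2 over Klf4 was 414-fold from 2 reads (114 to 3420). The log2 differences were 8.88 for Sox2 minus GFP, rank 3, and -7.81 for OSK minus Sox2, rank 1 from the bottom.

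CALHM5, the next gene upstream of CALHM4, was the most even of the 4 between the Sox2 libraries. It spans chromosome 6, 116511646 to 116524792, with 9784 exon bases, of which 43 are shared with TRAPPC3L on the opposite strand. It was at 509 and 554 normalised counts in Sox2 (mean 532 ± 31.6, SD, n = 2). GFP held 4.97, 1.01 and 3.89, Oct4 6.97 and 6.87, Klf4 3.47 and 3.43, and OSK 2.17 and 3.30. Oct4 was above every other group but Sox2. Klf4, at 3 reads in each library, and OSK, at 2 and 3 reads, could not be ordered at this depth. The GFP range spanned both. Sox2 was 162-fold above GFP (87.6 to 338), 216-fold without GFP replicate 1 (92.2 to 666), 196-fold above OSK (83.7 to 604), 77.3-fold above Oct4 (44.1 to 150) and 155-fold above Klf4 (71.0 to 423). The log2 differences were 7.10 for Sox2 minus GFP, rank 5, and -7.17 for OSK minus Sox2, rank 3 from the bottom.

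**Figure D1:**
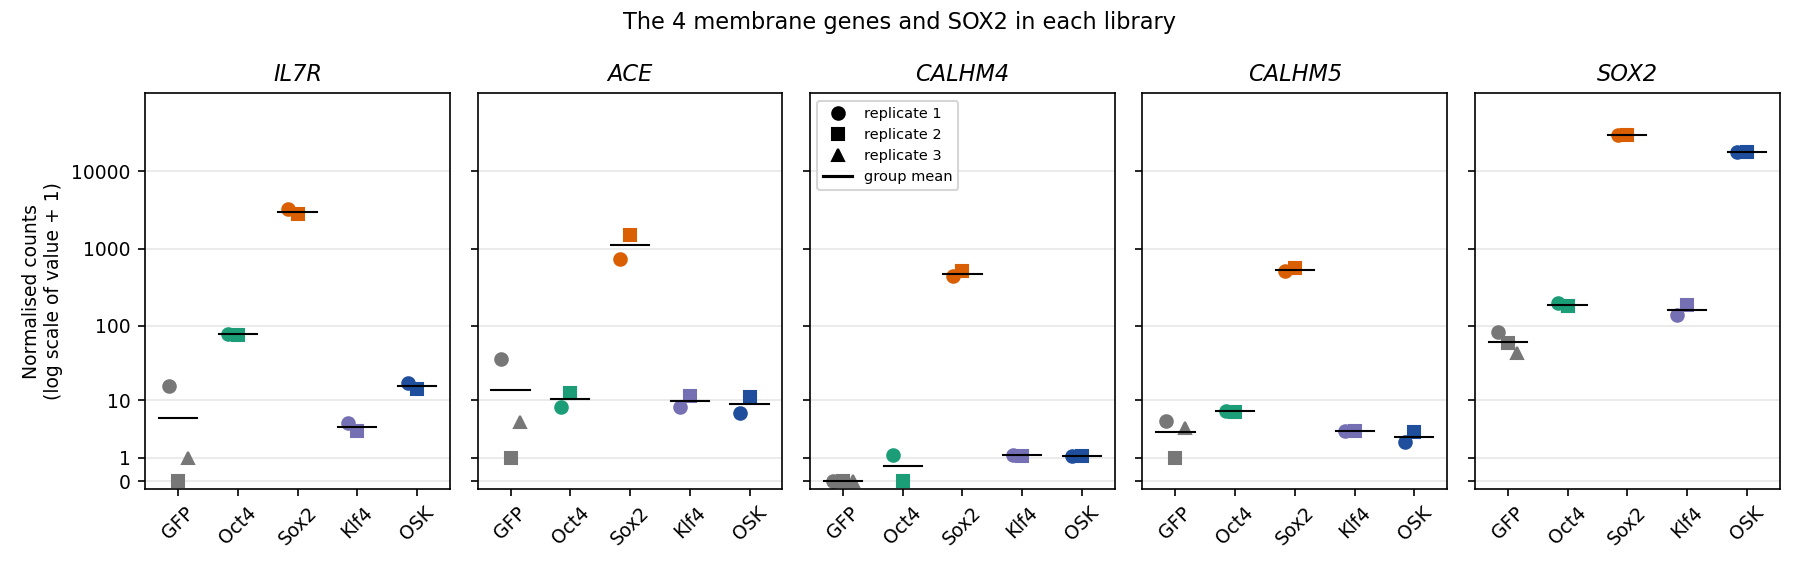
Normalised counts (vertical log axis of value + 1) of the 4 genes and SOX2 in every library, by group, with symbols for replicates and black bars for group means. In the 4 panels of the chosen genes only the Sox2 points lie above 100, whereas SOX2 itself is at 29106 and 29141 in Sox2 and at 17764 and 17582 in OSK.

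SOX2 itself was rank 2 for the Sox2 minus GFP difference, at 8.90 log2, so 4 of the 5 largest rises were the chosen genes. In OSK, where SOX2 stayed at 60.7% of its Sox2 level, the 4 genes held between 0.232% (CALHM4) and 0.782% (ACE) of theirs. Against GFP, OSK differed by 2.38 log2 for IL7R, 0.31 for ACE, 1.06 for CALHM4 and -0.07 for CALHM5. Without GFP replicate 1 these values were 3.58, 1.47, 1.06 and 0.24. In pooled reads the OSK over GFP ratio was 2.82 for IL7R, with a counting interval of 1.497 to 5.46, and 31.9 without GFP replicate 1 (5.29 to 1304). The matching ratio for ACE was 0.614 (0.323 to 1.11), or 2.94 (1.09 to 9.16) without GFP replicate 1. In bulk RNA, fewer cells with a transcript and less transcript per cell cannot be told apart, so these OSK levels may be either.

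Levels of different genes compare only per length. Per kilobase of exon, the Sox2 mean was 491 normalised counts for IL7R, 244 for CALHM4, 134 for ACE and 54.3 for CALHM5. The ranges over the Sox2 libraries did not overlap, with 454 to 527, 225 to 262, 87.2 to 180 and 52.1 to 56.6. CALHM4 and CALHM5 had similar normalised counts per gene, yet CALHM4 was the higher of the pair per kilobase because its annotated exons are shorter. Ordered by the smaller of the rise over GFP and the loss in OSK, CALHM4 came first at 7.81 log2, then IL7R at 7.47, CALHM5 at 7.10 and ACE at 6.79. The next gene, TLR4, a receptor for bacterial lipopolysaccharide, was at 6.01 and was not among the chosen genes. This order uses the values that chose the genes, and the choice had no stated cut-off.

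The comparisons among GFP, Oct4 and Klf4 take their differences from no Sox2 or OSK library, and there the 4 genes were tested. All 11 libraries share 1 estimate of the spread, so Sox2 and OSK libraries still enter the standard errors and p-values. Low GFP values were also part of the choice. The question is whether either factor alone moved the genes. IL7R rose in Oct4 over GFP by 4.60 log2 (SE 0.76, limma adjusted p = 0.000174), and by 5.80 without GFP replicate 1 (adjusted p = 6.91e-10). In pooled reads this was 13.7-fold (8.27 to 24.3), from 134 reads against 17. ACE differed by 0.55 (adjusted p = 0.644), CALHM4 by 0.56 (0.601) and CALHM5 by 1.03 (0.157), limma adjusted p in each case. The direction of ACE turned with the tool, at -0.45 in edgeR and -0.46 in DESeq2, and its pooled-read ratio was 0.730 (0.396 to 1.29). So 1 of 4 genes was called in Oct4 against GFP, where 37.3% of all tested genes were called. Since CALHM4 and CALHM5 entered the fit only through the Sox2 libraries, nothing is read from this count. Without GFP replicate 1, ACE (1.70, limma adjusted p = 0.0138) and CALHM5 (1.34, 0.0494) also passed, making 3 of 4, beside 39.7% of all genes. At 18 and 12 Oct4 reads these 2 calls rest on few counts, and low GFP values, part of the choice, favour a rise. Nothing is read from this count or from the CALHM5 call.

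In Klf4 against GFP none of the 4 genes passed limma's threshold, and 33.5% of all genes tested did; again nothing is read from the count. The log2 differences were 0.64 for IL7R (limma adjusted p = 0.572), 0.48 for ACE (0.7), 1.10 for CALHM4 (0.286) and 0.20 for CALHM5 (0.819). At an unadjusted p under 0.05 the count was 0 with limma, 1 with edgeR and 0 with DESeq2, and neither of the latter called a gene after adjustment. Without GFP replicate 1, IL7R (1.83, limma adjusted p = 0.000659, from 7 Klf4 reads against 1) and ACE (1.63, adjusted p = 0.0194) passed. That was 2 of 4, beside 36.2% of all genes, with the same limit on the count. With all libraries the direction of both also turned with the tool, since edgeR on the recovered reads gave -0.46 for IL7R and -0.53 for ACE.

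Klf4 and Oct4 were also compared with each other, a difference that uses no GFP library. The GFP libraries still enter its standard error through the shared estimate of the spread. IL7R was lower in Klf4 by a log2 change of -3.97 (SE 0.84, limma adjusted p = 0.00114). Without GFP replicate 1 the change was the same, with SE 0.36 and limma adjusted p = 5.75e-08. In pooled reads Oct4 stood 19.2-fold above Klf4 (9.06 to 48.7). ACE (-0.07, limma adjusted p = 0.969), CALHM4 (0.55, 0.638) and CALHM5 (-0.83, 0.293) did not pass. Here 1 of 4 genes was called and 41.7% of all genes were, with the same limit on the count. With all libraries, IL7R was thus called in both comparisons that involved Oct4. CALHM4 and CALHM5 entered the fit only through the Sox2 libraries and held few reads here, so IL7R is not set against them. The human SOX2 row was 1.63 log2 higher in Oct4 than in GFP (limma adjusted p = 2.6e-06) and 1.39 higher in Klf4 than in GFP (adjusted p = 1.82e-05), at 188 and 160 normalised counts. Its part in the IL7R difference was not tested.

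**Figure D2:**
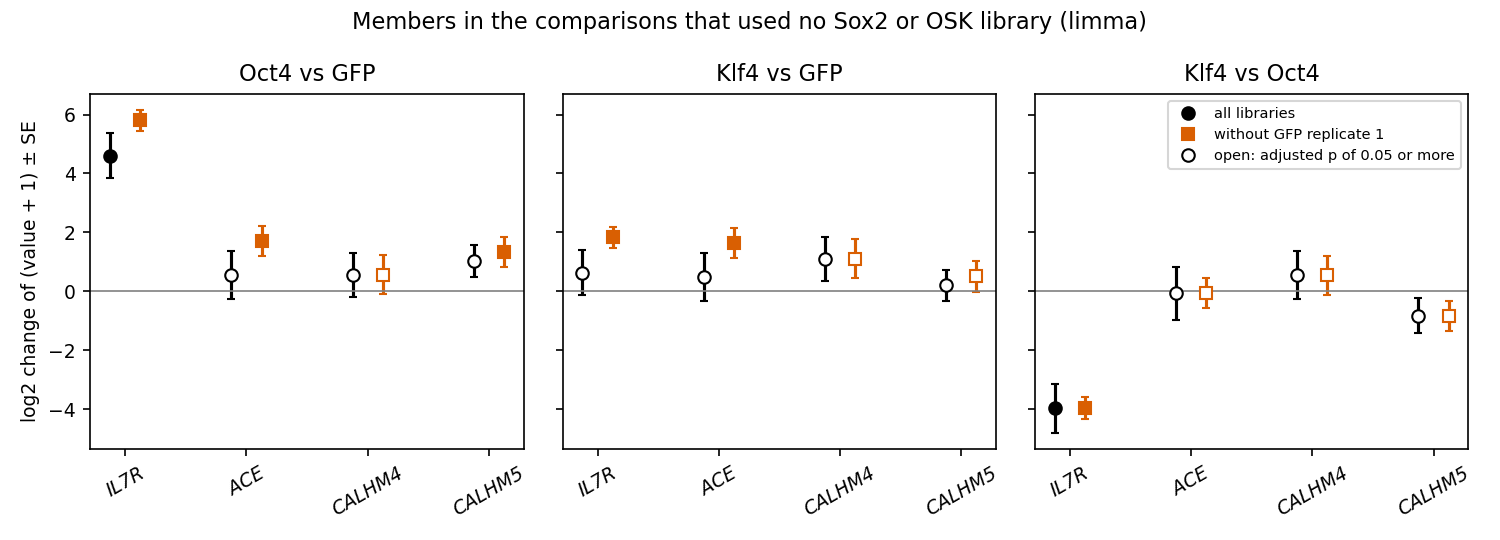
Log2 change of (value + 1) with its standard error for the 4 genes in the 3 comparisons among GFP, Oct4 and Klf4. Limma was fitted with all libraries, those of Sox2 and OSK included (black circles), and without GFP replicate 1 (orange squares). Filled symbols have an adjusted p under 0.05: with all libraries only IL7R is filled, at 4.60 in Oct4 against GFP and -3.97 in Klf4 against Oct4.

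The genes beside each of the 4 were examined to see how far along the chromosome the Sox2 level extended. The 3 nearest genes on each side in RefSeq gave 20 distinct genes, of which 16 were in the table. Among them CALHM4 and CALHM5 are neighbours of each other, 4255 bases apart. TRAPPC3L, a paralogue of a vesicle-tethering subunit, runs on the opposite strand across CALHM5 and into CALHM4. It was at 8.98 and 16.3 normalised counts in the Sox2 libraries, from 27 reads in all, and at 0 in the other 9 libraries. It did not pass the filter and was not tested. Whether the counting used strand is not given in the sources used here, so TRAPPC3L reads cannot be told apart from antisense reads of its partner. CALHM6, the third family member of this cluster, did not exceed 2.24 in any library, and CALHM6-AS1 was at 0 throughout. On the other side RWDD1, 10377 bases beyond CALHM4, was higher in Sox2 than in GFP by 0.36 log2 (limma adjusted p = 0.00332) and lower in OSK than in Sox2 by a log2 change of -0.39 (adjusted p = 0.00348). RSPH4A, a radial spoke protein of motile cilia, differed by 0.07 (limma adjusted p = 0.932).

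Near IL7R, SPEF2, a protein of sperm tails and cilia that ends 42280 bases before it, was the neighbour with the largest called change. Its normalised counts were 145 to 163 in GFP, 202 and 209 in Oct4, 433 and 454 in Sox2, 102 and 161 in Klf4, and 64.0 and 99.0 in OSK. It rose in Sox2 over GFP by 1.55 log2 (SE 0.19, limma adjusted p = 7.73e-06) and fell in OSK against Sox2 by a log2 change of -2.46 (SE 0.21, adjusted p = 1.37e-07). SPEF2 was above GFP in both Oct4 libraries too. CAPSL, on the other side of IL7R, was at 58.1 and 64.1 in Oct4 and at most 1.12 in any other library. Its Sox2 minus GFP difference was 0.21 (limma adjusted p = 0.887). So the Oct4 libraries held the second highest IL7R level and the highest CAPSL level of the 5 groups.

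Near ACE, CYB561, a membrane electron carrier that uses ascorbate, rose in Sox2 over GFP by 0.48 log2 (limma adjusted p = 0.0015) and fell in OSK against Sox2 by a log2 change of -0.97 (adjusted p = 4.77e-06). DCAF7, a WD repeat adaptor beyond ACE, differed by 0.02 (limma adjusted p = 0.811) and 0.05 (0.626). ACE3P, PPIAP55 and KCNH6 did not pass the filter, and KCNH6 reached 31.8 in GFP replicate 1 against at most 4.34 elsewhere. Of the 6 tested neighbours that were not themselves chosen, SPEF2, CYB561 and RWDD1 were called higher in Sox2 than in GFP, where 21.7% of all genes were called higher and 19.9% lower. The same 3 were called lower in OSK than in Sox2, where 20.5% of all genes were called lower and 20.0% higher. These comparisons share the Sox2 libraries and are not independent. None of the 3 changed by as much as any of the 4 chosen genes.

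**Figure D3:**
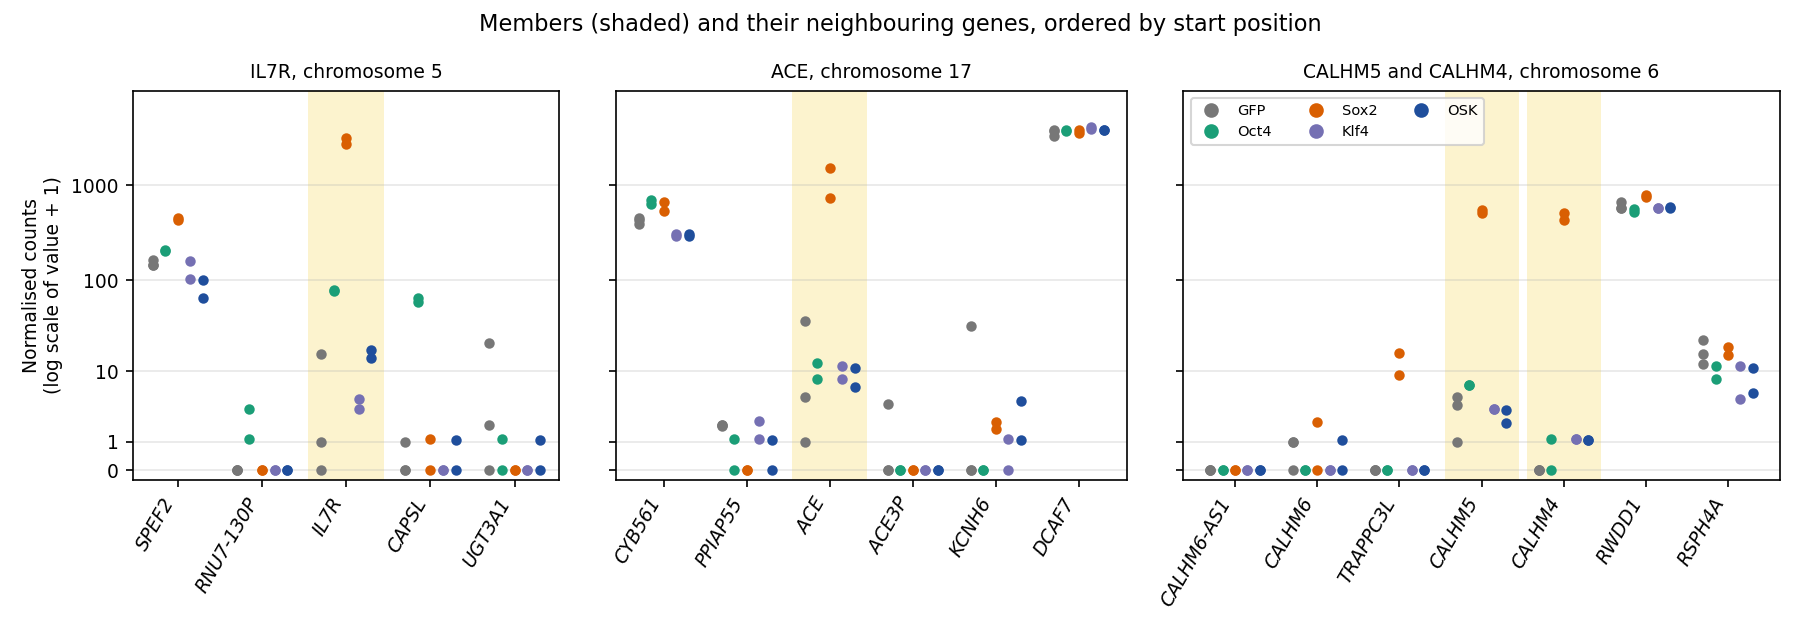
Normalised counts (vertical log axis of value + 1) of the 4 genes (shaded) and their neighbours in the table, in order of start position, with 1 point per library and a colour per group. The Sox2 points of the shaded genes stand far above the other groups, SPEF2 has Sox2 points at 433 and 454, TRAPPC3L has only Sox2 points above 0, and CAPSL has only Oct4 points above 2.

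The partners of IL7R did not move with it as a group. Of 25 genes for ligands, co-receptors, kinases, STATs and targets of this receptor family, 18 passed the filter. In Sox2 against GFP, 7 were higher and 7 lower (limma, adjusted p under 0.05), with a median of -0.11 log2 against -0.02 over all genes. Over all genes 21.7% were higher and 19.9% lower. The counts were again 7 and 7 without GFP replicate 1, and the median turned to 0.06, against 0.02 over all genes. The ligand IL7 rose by 1.597 (adjusted p = 0.00715), from 7.78 to 16.9 normalised counts in GFP to 36.0 and 37.0 in Sox2, and fell back in OSK by a log2 change of -1.48 (limma adjusted p = 0.0203). The other ligand, TSLP, was at most 12.8, in Oct4, and at most 1.12 in Sox2. The co-receptor IL2RG never exceeded 1.16, and CRLF2 was at 0 in all 11 libraries, so each of IL7R's known receptor partners was at or near 0 where IL7R was high. The kinase JAK3 was at 17.9 and 26.5 in Sox2, and JAK1 at 3783 and 4012.

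SOCS2, a feedback inhibitor of STAT5 signalling, rose in Sox2 over GFP by 1.72 log2 (limma adjusted p = 3.59e-05). SOCS3, another inhibitor of the family, fell by a log2 change of -2.65 (limma adjusted p = 4.71e-10), and PIM1, a kinase gene that STAT factors induce, by -1.33 (2.43e-07). CISH, a further STAT5 target, was at 0 in both Sox2 libraries, but it did not pass the filter. Its means were 3.45 in Oct4, 4.37 in OSK and 3.925 in GFP without replicate 1. In OSK against Sox2, 7 of the 18 were higher and 7 lower, with a median of 0.25 against 0.03 over all genes, of which 20.0% were higher and 20.5% lower. SOCS2 fell by a log2 change of -2.16 (limma adjusted p = 9.44e-06) and SOCS3 rose by 1.36 (adjusted p = 3.02e-06). Targets of the pathway thus moved in both directions.

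Of 25 genes of the angiotensin and kinin systems, 13 passed the filter, and in Sox2 against GFP 4 were higher and 6 lower, with a median of -0.52, beside 21.7% and 19.9% of all genes. Leaving out GFP replicate 1 gave 3 higher and 6 lower, with a median that was again -0.52. The substrate precursor AGT fell by a log2 change of -1.52 (limma adjusted p = 0.0116), from 34.0 to 51.6 normalised counts in GFP to 11.1 and 16.8 in Sox2. The kinin receptors, which bind the peptides that ACE degrades, fell furthest. BDKRB1 fell by a log2 change of -3.60 (limma adjusted p = 0.000137), to 1.12 and 1.71 in Sox2, and BDKRB2 by -3.52 (0.000224), to 0 and 0.86. The aminopeptidase LNPEP rose by 0.77 (limma adjusted p = 4.8e-07) and the prolyl peptidase PREP by 0.41 (0.00352). The angiotensin receptors AGTR1 and AGTR2 did not exceed 3.25 in any library.

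In OSK against Sox2, 2 of these 13 genes were higher and 4 lower, with a median of 0.07, beside 20.0% and 20.5% of all genes. The 6 calls fell to 3 without OSK replicate 2. BDKRB2 rose by 1.81 (limma adjusted p = 0.0425) and PREP fell by a log2 change of -0.96 (adjusted p = 2.95e-06). BDKRB1 differed by 1.03 (limma adjusted p = 0.235). Both kinin receptors were at 2.20 to 6.50 in OSK, still below every GFP library. ACE in OSK lay between GFP replicate 1 and the other GFP libraries.

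Of 25 other large-pore channel genes, 13 passed, with 5 higher and 2 lower in Sox2 against GFP and a median of -0.06, beside 21.7% and 19.9% of all genes. The counts were again 5 and 2 without GFP replicate 1, and the median turned to 0.32. CALHM2, the family member with the most counts per kilobase outside Sox2, was at 66.5 to 124 normalised counts in GFP and 76.2 and 79.7 in Sox2, a difference of -0.24 log2 (limma adjusted p = 0.488). CALHM1 and CALHM3 had no read in Sox2. The pannexin PANX2 rose by 1.80 (limma adjusted p = 0.00194) and LRRC8C, a subunit of the volume-regulated anion channel, by 1.54 (0.000172). LRRC8D, another subunit, fell by a log2 change of -0.60 (limma adjusted p = 5e-05), and the connexin GJA1 by -0.55 (0.000863). In OSK against Sox2, 5 were higher and 4 lower, with a median of -0.07, beside 20.0% and 20.5% of all genes. PANX2 fell by a log2 change of -2.47 (limma adjusted p = 0.000327), while LRRC8C rose further, by 1.196 (adjusted p = 0.00323).

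**Figure D4:**
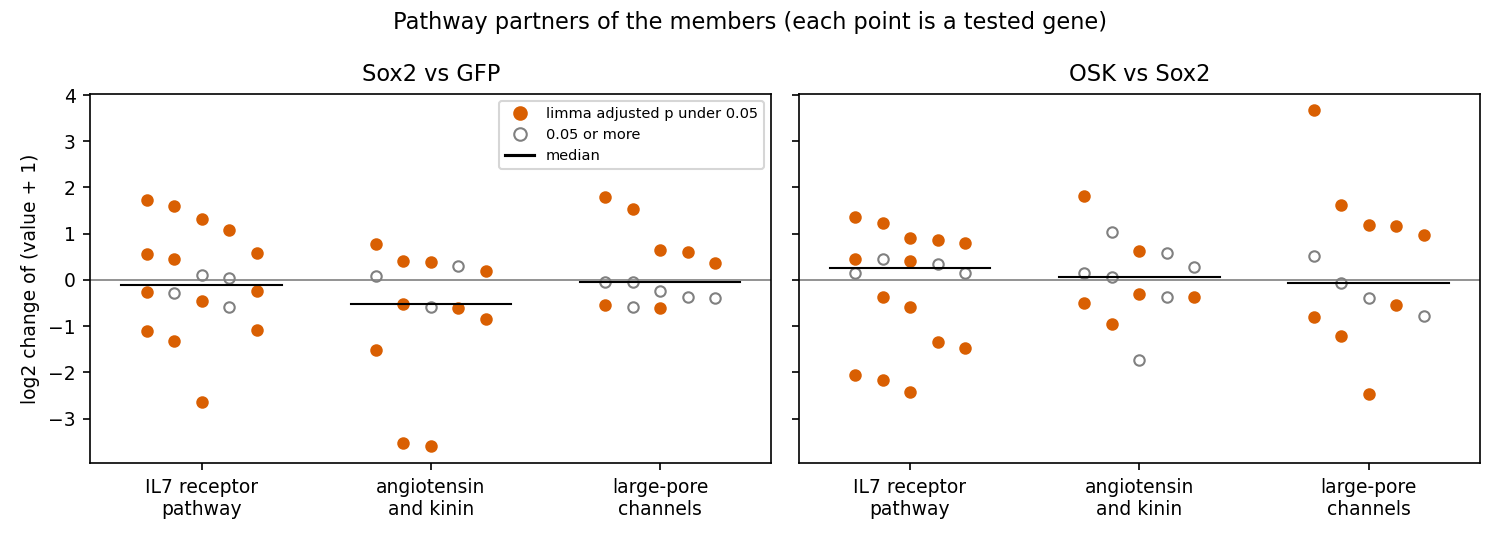
Log2 change of (value + 1) of each tested partner gene in 3 lists, for Sox2 against GFP (left) and OSK against Sox2 (right). Filled points have a limma adjusted p under 0.05 and bars are list medians, which run from -0.52 to 0.25, with points on both sides of 0 in each list.

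Markers of cell types known for these genes were read beside them. The summed level of 12 lymphoid markers was 10.1 and 17.1 in the Sox2 libraries, 11.4 to 47.7 in the Oct4, Klf4 and OSK libraries, 12.6 and 28.3 in GFP replicates 3 and 2, and 316 in GFP replicate 1. In the Sox2 libraries CD3E, CD247, MS4A1, CD79B and PAX5 were at 0, and PTPRC, the pan-leukocyte marker, was at 1.71 and 2.24. LCK was the highest there, at 5.99 to 7.85. The sum of 47.7 was that of OSK replicate 1, with 8 of the 12 markers above 0. OSK replicate 2 was at 13.2 and Klf4 replicate 2 at 11.4, so the Sox2 sums were close to these. The part of lymphoid RNA in the IL7R level of the Sox2 libraries was not tested. In GFP replicate 1, which alone had all 12 lymphoid markers and all 10 endothelial markers above 0, IL7R and ACE were also the highest of the GFP group. The part of those RNAs in its IL7R and ACE values was not tested.

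The summed level of 10 endothelial markers was 738 and 921 in Sox2, 574 to 753 in Oct4, Klf4 and OSK, and 1110 to 1548 in GFP, most of it KDR. KDR was at 690 and 859 in Sox2, against 1089 to 1218 in GFP. CLDN5 and EMCN were at 0 in both Sox2 libraries, and CDH5 and ERG were at 0 in 1 and at 0.86 in the other. With all libraries, KDR was the only endothelial marker called in Sox2 against GFP, lower by a log2 change of -0.59 (limma adjusted p = 9e-05). Without GFP replicate 1, PECAM1 (3.96, limma adjusted p = 0.000645) and VWF (3.05, adjusted p = 0.000334) were called higher in Sox2, where 22.8% of all genes were. PECAM1 was at 12.3 and 17.1 in Sox2, and at most 11.9 in the Oct4, Klf4 and OSK libraries. VWF was at 11.2 and 15.4 in Sox2, below its Klf4 and OSK levels of 27.5 to 46.3. The part of endothelial RNA in the ACE level was not tested.

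The summed level of 10 trophoblast markers was 98.7 and 114 in Sox2, below the 362 to 711 of the GFP libraries, with CGA, CGB3, GCM1, PSG3, CSH1 and VGLL1 at 0 in both Sox2 libraries. OSK had the highest sums, 1947 and 2437, nearly all PSG1. PSG1 was also most of the GFP sums. In Sox2 against GFP, ERVW-1, an envelope gene of trophoblast fusion, was higher by 1.14 log2 (limma adjusted p = 0.0165), while PSG1 (-2.96, 3.74e-07) and ERVFRD-1 (-2.81, 0.00048) were lower. The part of these markers in the CALHM4 level was not tested. The summed level of 10 neural progenitor markers was 3299.7 in Sox2 replicate 1 and 3314 in replicate 2, within the 2971 to 3717 of the other libraries, nearly all of it PAX6. NES was at 28.3 and 29.2 in Sox2 against 27.2 to 66.5 in GFP (log2 difference -0.64, limma adjusted p = 0.163), and PROM1 at 4.49 and 5.14 against 5.06 to 48.7 (-1.53, 0.102).

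The genes most like each of the 4 were found by the root mean square difference of log2(value + 1), centred on each gene's mean over the 11 libraries. A smaller value means a closer pattern, and most of it follows the Sox2 libraries that chose the genes. CALHM5 was closest to TLR4 (0.64), ACE (0.74) and ENSG00000286980 (0.82). ACE was closest to CALHM5 (0.74), TLR4 (0.93) and TNFSF10 (0.96), a death receptor ligand. CALHM4 was closest to TLR4 (0.84), CALHM5 (0.91) and ACE (1.20). IL7R had no gene as close, with CALHM5 at 1.58, ACE at 1.62 and TLR4 at 1.76. The medians over all tested genes were 2.73 for CALHM5, 2.84 for ACE, 3.26 for CALHM4 and 3.68 for IL7R. TLR4 was at 3476 and 3967 normalised counts in Sox2, 21.4 to 41.7 in GFP, 37.2 and 48.1 in Oct4, 30.9 and 37.0 in Klf4, and 51.0 and 62.7 in OSK, so its OSK level was 1.53% of its Sox2 level. TNFSF10 was lower, at 47.1 and 51.4 in Sox2, at most 6.95 in GFP and 0 in every Oct4, Klf4 and OSK library.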

How the data were processed

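Polyadenylated RNA of 11 ARPE-19 libraries was analysed from 1 table of normalised counts, a signal scaled per library by the authors. STAR 2.7.1a, featureCounts 1.6.2 and the builds GRCh38/hg38 and GRCm38/mm10 are named per the submitters' processing notes, without roles. The annotation, the strand setting and the scaling method are not given in the sources used here. Groups came from the sample titles. Values up to 200 were whole multiples of 1 step per library within 0.0061 (100% of values), which gave whole reads. In GFP replicates 1 and 2 the step is near 1, so recovery there rests on 3568 and 2976 values between 50 and 200.

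The 4 genes and all gene lists were chosen with earlier results of these data known. Genes with at least 10 normalised counts in at least 2 libraries were fitted as log2(value + 1) with limma 3.58.1 (R 4.3.3; all 11 libraries, 1 mean per group, trended variance), with Benjamini-Hochberg adjustment over 18828 genes and a threshold of 0.05. The planned edgeR fit for raw counts became an alternative, since the values are scaled. Fold changes are ratios of pooled reads over summed library scales, with exact (Clopper-Pearson) 95% intervals that cover counting error only. The 4 genes were tested only in comparisons among GFP, Oct4 and Klf4, where Sox2 and OSK libraries enter through the shared estimate of the spread. Per list, the text names at most 2 largest called rises and falls in Sox2 against GFP, the direct partners (apart from 1 gene not reported here), the 3 nearest RefSeq genes per side, and the 3 closest patterns per gene. Others (JAK1, JAK3, CISH, CALHM1, CALHM3, AGTR1, AGTR2 and single markers) were named after their values were seen. Exon lengths and overlaps come from GENCODE 29. Alternatives were edgeR 4.0.16 and DESeq2 1.42.0 on the recovered reads, TMM rescaling, pseudocounts of 0.5 and 5, other filters, only the compared groups, a replicate block, and leaving out each library. The fits were tested on simulated data.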

Additional observations from a re-analysis of the deposited data

How the results depend on the processing

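Over all alternatives, 211 of 228 values of the 4 genes in the tested comparisons kept their direction and side of the threshold. Leaving out a library of a group not compared, changing the filter, or fitting only the compared groups left the log2 difference unchanged. In those settings only the side of the threshold could change. A CALHM4 value of 0.000, in Oct4 against GFP without Oct4 replicate 1, was counted as kept. Nothing is therefore read from the share of 211. Of the counts of called genes over the whole table, 100 of 100 stayed within 1.5 times the reported count. Of the counts within the 3 partner lists, 1 moved further: the angiotensin and kinin calls in OSK against Sox2 fell from 6 to 3 without OSK replicate 2. Counts of the lymphoid, endothelial and neural markers, of 0 or 1 each, moved between 0 and 3. Genes called ran from 5119 to 7231 for Oct4 against GFP, 4400 to 6603 for Klf4 against GFP, 6259 to 8602 for Klf4 against Oct4, 5844 to 7946 for Sox2 against GFP and 5815 to 8348 for OSK against Sox2. IL7R stayed higher in Oct4 than in GFP, by 3.27 to 5.80 log2 (adjusted p from 6.91e-10 to 0.00821), and lower in Klf4 than in Oct4, by -4.26 to -3.19 (5.75e-08 to 0.0125). On recovered reads, edgeR and DESeq2 turned 3 uncalled differences: ACE in Oct4 against GFP was -0.45 and -0.46, IL7R in Klf4 against GFP -0.46 and -0.48, and ACE in Klf4 against GFP -0.53 and -0.54. The cause was not tested. GFP replicate 1 held 16 of the 17 GFP reads of IL7R and 37 of the 43 of ACE. Leaving out 1 library at a time gave these ranges. In Oct4 against GFP, ACE ran from -0.42 to 1.70 and CALHM5 from 0.55 to 1.34. In Klf4 against GFP, IL7R ran from -0.21 to 1.83, ACE from -0.48 to 1.63 and CALHM5 from -0.28 to 0.51. In Klf4 against Oct4, ACE ran from -0.35 to 0.22 and CALHM4 from -0.007 to 1.10. The calls of ACE and CALHM5 in Oct4 and of IL7R and ACE in Klf4 appeared only without GFP replicate 1 (adjusted p = 0.0138, 0.0494, 0.000659 and 0.0194), and no reversed value had an adjusted p under 0.05. CALHM4 and CALHM5 have no value without a Sox2 library, because they then fail the filter. The described CALHM4 rise in Sox2 depends on the pseudocount, from 6.57 to 9.88, and was 11.81 in edgeR, because its GFP libraries hold no read.

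The sources used here do not say whether same-numbered libraries belong together. Their deviations correlated across genes at -0.069 to 0.042, but at 0.412 between GFP and OSK. Replicate 1 of GFP and replicate 1 of OSK also had the most features detected, 42956 and 32493. What these libraries share was not tested. With a replicate block, 6072 genes were called in Oct4 against GFP, 5322 in Klf4 against GFP, 7546 in Klf4 against Oct4, 7051 in Sox2 against GFP and 7329 in OSK against Sox2, and no call of the 4 genes changed. Depth limits CALHM4 and CALHM5 outside Sox2, where no library held more than 6 reads of either.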
